A study of Mus musculus with 12 samples.

Results

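The 30 genes described here encode the enzymes that make cholesterol and long-chain fatty acids, together with regulators that set their level. They were listed by name, and each was read from the probe set with the highest mean log2 intensity over the 12 arrays. Of the 30, 29 had a named probe set among the 18193 genes with one, and all 29 were among the 12797 genes tested. Acat2 was not analysed here. The 29 fall into 17 enzymes of the mevalonate and sterol route, 4 regulators and sterol transport genes (Insig1, Srebf1, Srebf2 and Stard4), and 8 enzymes of fatty acid synthesis, desaturation and elongation.

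The study profiled T cell lymphoma caused in mice by ZMYM2-FGFR1, a fusion of a zinc finger gene with a receptor tyrosine kinase. The normal T cell group was 3 samples of Thy1+ CD4+CD8+ double-positive (DP) cells sorted from the thymus of Balb/c mice, each pooled from 3 animals. The T lymphoma group was 4 tumours taken at the third serial transplant: 3 were unsorted, with over 90% of their cells GFP+Thy1+DP+, and 1 was sorted for those cells. ZNF112, described in the labels only as an unsorted cell line, gave 1 array. Normal haematopoietic stem cells (HSC) were sorted from Balb/c bone marrow as Lin-Sca-1+c-kit+ cells, in 2 samples of 5 female mice each. Leukaemic stem cells (LSC) were GFP+ cells of that phenotype sorted from marrow or spleen of 2 to 3 diseased mice per sample, also in 2 samples. The strain and age of the diseased mice, the construct that carried the fusion, and the origin of the cell line were not given in the sources used here.

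Cells build sterols from acetyl-CoA through mevalonate, isoprenyl units and squalene, which is closed into lanosterol and then trimmed in many steps to cholesterol. SREBP-2, encoded by Srebf2, is known to drive the sterol enzymes when membrane sterol is low, and SREBP-1, encoded by Srebf1, leans toward the fatty acid enzymes. Insig1 encodes a membrane anchor that holds the SREBP proteins back when sterol is plentiful, and dividing lymphocytes are known to draw on both routes for new membrane.

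The arrays were not alike in ways that touch these genes. Array medians were 99.2 to 109 intensity units for the 8 arrays of the T cell side (thymocytes, lymphomas and cell line) and 44.2 to 46 for the 4 of the stem cell side (HSC and LSC), so levels are compared only within a side. For beta-actin, the signal of the 3' probe set over that of the 5' one, a sign of RNA quality, was 2.18 to 2.23 in DP thymocytes, 2.44 to 3.69 in T lymphoma, 2.6 in the cell line, 3.91 and 5.79 in HSC, and 9.82 and 13.6 in LSC. The defining DP markers were present in DP thymocytes and T lymphoma but not at one level: Cd4 read 13.02 to 13.30 in the thymocytes but 9.61 to 11.01 in the tumours, lower by 7.36-fold (adjusted p = 0.0029). Cd8a read 14.13 to 14.30 and 12.14 to 13.58, and Cd8b1 14.04 to 14.33 and 11.34 to 13.22, both without a call. All 8 DP markers tested had T lymphoma differences below 0, and 2 were called. Their part in the T lymphoma results was not tested. In the cell line, Cd4 read 6.88, Cd8a 8.51 and Cd8b1 6.19. The rest of the DP markers there were Thy1 at 13.41, Cd3g at 13.72, Cd3e at 10.67, Rag1 at 13.64 and Rag2 at 7.97. Of the 8 markers, 3 lay above the lymphoma mean (Thy1, Cd3g and Cd3e). Rag1, which thymocytes use to rearrange receptor genes, read 10.92 and 11.27 in LSC against 7.48 and 6.93 in HSC. The HSC genes Hlf and Mecom, at 9.80 or more in HSC, read 5.92 or less in LSC. Of the 6 HSC markers tested, 3 were called lower in LSC (Hlf, Mecom and Meis1), and 1, Kit, lay above 0. Kit differed by 0.43 and Procr by -0.97, both without a call. Gata2, also without a call, read 12.39 in LSC 1 and 6.94 in LSC 2, against 10.12 and 9.80 in HSC. The summed intensity of 12 macrophage markers was 1362 to 1513 in DP thymocytes, 26880 to 59410 in the unsorted lymphomas and 3649 in the sorted one. Effects are given as log2 differences with the standard error (SE) of the limma fit, and a gene is called at a Benjamini-Hochberg adjusted p under 0.05 over all 12797 genes.

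**Figure D1:**
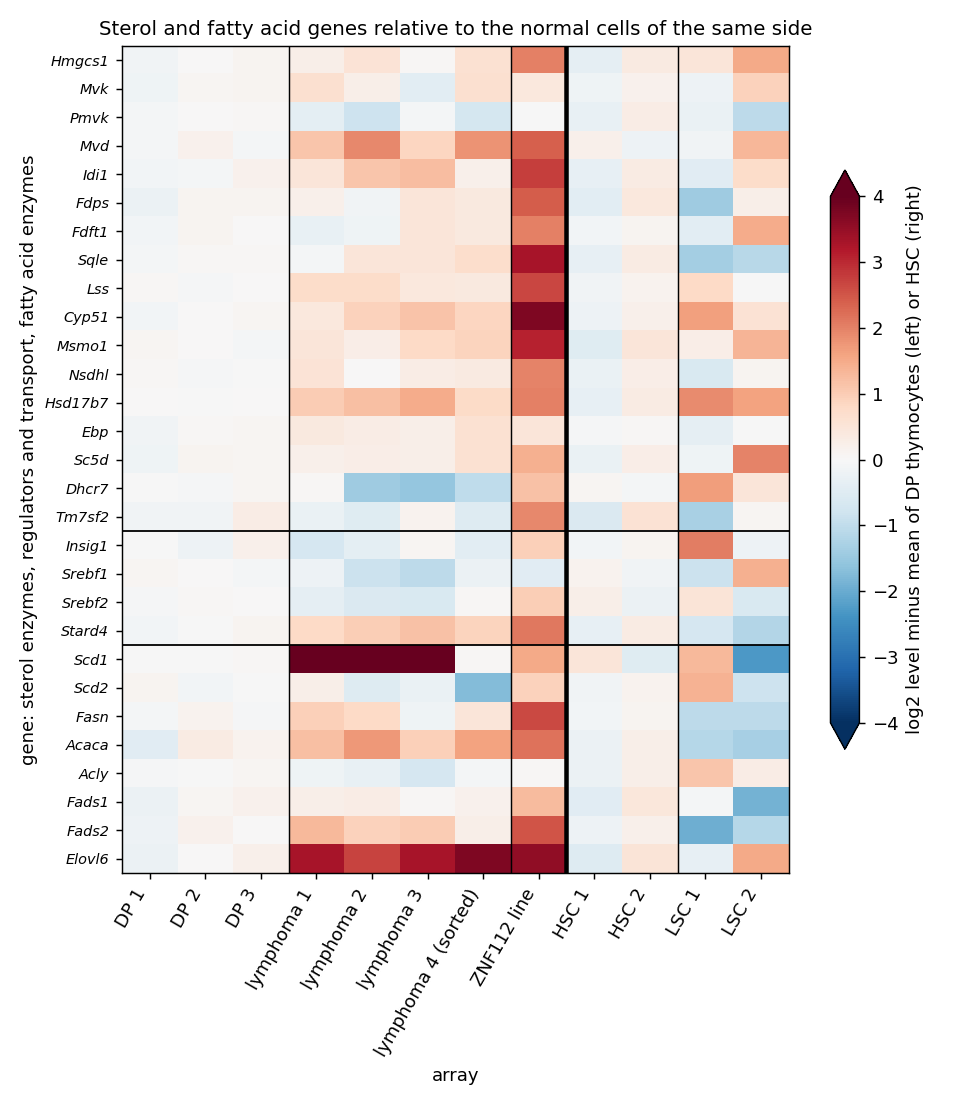
Log2 level of each of the 29 genes (rows) in each of the 12 arrays (columns), minus the mean of the normal cells of the same side: DP thymocytes for the 8 arrays left of the thick line, HSC for the 4 on the right. The median over the genes is 2.00 in the cell line, 0.29 to 0.40 in the 4 lymphomas, and -0.19 and 0.10 in the LSC arrays; Scd1 in the 3 unsorted lymphomas lies near or beyond the end of the colour scale.

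The cell line lay above the tumours for most of these genes. Its level was above the T lymphoma mean for 28 of the 29 genes (52.6% of all genes tested), the exception being Scd1, and the median difference was 1.36 against 0.03 over all genes. It lay above each of the 4 lymphoma arrays for 24 of 29 genes, or 82.8%, where 28.6% of all genes did, and below all of them for 0, where 21.6% of all genes did. It lay above all 7 DP and lymphoma arrays for 22, or 75.9%, against 21.8%. For 19 genes, or 65.5%, it was at least 2-fold above the lymphoma mean, against a background of 7.34%. Of those 19, 12 were among the 17 sterol enzymes, 3 among the 4 regulators and transport genes, and 4 among the 8 fatty acid enzymes. The cell line is 1 array with no replicate, assumed in the fit to vary like the other groups.

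The calls between the cell line and T lymphoma were 6 of 29, all higher, where 0.539% of all genes were called higher, 0.617% lower and 1.16% in either direction. At an unadjusted p under 0.05 there were 16, or 55.2%, against 12.1%. Sqle, which encodes squalene epoxidase, the first oxygen-adding step of the sterol branch, read log2 12.83 in the cell line. It read 9.47, 10.01, 10.04 and 10.23 in the lymphomas and 9.47, 9.58 and 9.57 in DP thymocytes. No lymphoma came near the cell line, which was higher by 2.89 ± 0.33 SE, or 7.43-fold (adjusted p = 0.00773). Cyp51, the lanosterol demethylase, read 11.41 in the cell line against 8.11, 8.62, 8.83 and 8.53 in the lymphomas. Its difference was 2.88 ± 0.40, or 7.38-fold (adjusted p = 0.0138), and 3 probe sets for the gene gave 1.40 to 2.91. Lss, the cyclase that makes lanosterol, read 11.33 against 9.40, 9.40, 9.07 and 9.05, a difference of 2.10 ± 0.31 (adjusted p = 0.0177). Its other tested probe sets gave 0.42 and 2.24 without a call, and the call was lost with the mean over probe sets and without probe sets of the _x_at and _s_at kinds. Msmo1, which removes methyl groups after Cyp51, read 11.37 against 8.80, 8.58, 9.08 and 9.19, higher by 2.46 ± 0.46 (adjusted p = 0.0439). Nsdhl acts in the same demethylation and read 11.90 against 10.44, 9.92, 10.20 and 10.26, higher by 1.70 ± 0.32 (adjusted p = 0.0455). Msmo1 and Nsdhl lost their calls without lymphoma replicate 1, 2 or 3. These 5 sterol enzymes all lie between squalene and the late sterol intermediates. Tm7sf2 and Hsd17b7, which act in the same stretch, had no call. Genes without a call on either side, such as Fdps (2.18) and Dhcr7 (2.18), had larger differences than Nsdhl, with larger SE. Fasn, the fatty acid synthase, was the only fatty acid gene of the 6: it read 12.37 against 10.68, 10.51, 9.53 and 10.21, higher by 2.14 ± 0.38 (adjusted p = 0.0369), with no call without lymphoma replicate 2.

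The other sterol enzymes had no call. Upstream, Hmgcs1, which makes HMG-CoA, was higher by 1.65 ± 0.41 (adjusted p = 0.12), Idi1, the isopentenyl isomerase, by 2.02, Fdps, which makes farnesyl diphosphate, by 2.18, and Fdft1, squalene synthase, by 1.90. Mvd, which decarboxylates mevalonate diphosphate, differed by 0.95. Within the stretch of the called enzymes, Tm7sf2, a sterol reductase, differed by 2.21 ± 0.55 and Hsd17b7, a sterol ketone reductase, by 0.91. Downstream, Dhcr7, the last reductase to cholesterol, differed by 2.18 ± 0.59 and Sc5d, a sterol desaturase, by 1.10. The smallest differences were those of the mevalonate kinase Mvk at 0.14 ± 0.48, the phosphomevalonate kinase Pmvk at 0.48 ± 0.38 and the sterol isomerase Ebp at 0.10 ± 0.24. Their 95% intervals ran from -0.95 to 1.22, -0.37 to 1.33 and -0.44 to 0.64, so a 2-fold difference (1 on the log2 scale) lies outside the interval for Ebp but not for the kinases.

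Among the regulators, Srebf2 read 10.45 in the cell line against 9.10, 8.90, 8.85 and 9.51 in the lymphomas, a difference of 1.36 ± 0.41 without a call (adjusted p = 0.205). Its other probe set differed by 2.21 and passed when p was adjusted over probe sets (adjusted p = 0.0286). Srebf1, at 11.11 in the cell line, lay within the lymphoma range of 10.52 to 11.36. Insig1 differed by 1.31 ± 0.66, and Stard4, a carrier of cholesterol between membranes, by 1.16 ± 0.30 (adjusted p = 0.136). Of the fatty acid enzymes, the delta-6 desaturase Fads2 differed by 1.66 ± 0.42, the stearoyl-CoA desaturase Scd2 by 1.5 ± 0.81, and the delta-5 desaturase Fads1 by 1.09. Acaca, the acetyl-CoA carboxylase, differed by 0.79, Acly, the citrate lyase that supplies acetyl-CoA, by 0.35, and the elongase Elovl6 by 0.29.

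**Figure D2:**
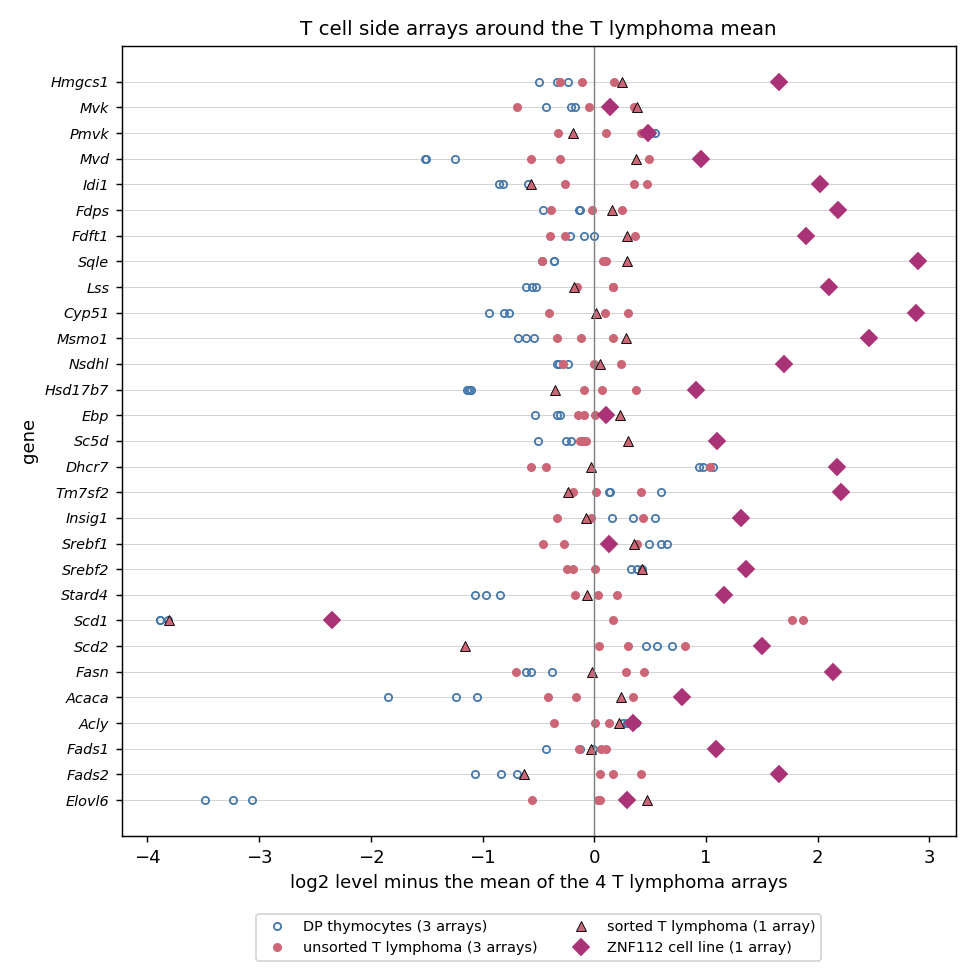
Log2 level minus the mean of the 4 T lymphoma arrays, for each gene, in every array of the T cell side; open circles are the 3 DP thymocyte arrays, filled circles the 3 unsorted lymphomas, triangles the sorted lymphoma and diamonds the cell line. The diamond is right of every lymphoma in 24 of 29 genes, is farthest out for Sqle (2.89) and Cyp51 (2.88), and is left of 0 only for Scd1 (-2.34).

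Other measures moved with the cell line. All 13 mitosis genes tested were above their lymphoma mean, with a median difference of 1.17 and 0 calls in limma; the largest was Plk1 at 2.27. The macrophage marker sum was 2122 in the cell line, above the 1362 to 1513 of DP thymocytes and below the 3649 of the sorted lymphoma. The stroma and endothelium sum was 1027, within the DP thymocyte range of 957.7 to 1096. The part of cell division or of admixed cells in the difference was not tested. With the sorted tumour as the only lymphoma, 2 of the 29 genes were called, where 1.34% of all genes were: Sqle at 2.60 (adjusted p = 0.0419) and Fasn at 2.16 (adjusted p = 0.0315). When only the lymphoma and cell line arrays set the spread, 0 were called, against 4 of 12797 genes in all. Against DP thymocytes, a comparison chosen after the values were seen, the cell line was called higher for 15 of 29 genes, where 2.78% of all genes were called higher, with a median of 2.00. Those 15 included Elovl6 (3.55), Cyp51 (3.72), Sqle (3.29) and Acaca (2.16).

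Since most of the genes were higher in the cell line, their promoters are shown from RefSeq (build GRCm38.p6), which held windows of 250 bases before to 50 after the start for 22 of the 29 genes. Sqle was among the 7 without a window. Each line below gives the 250 bases before the start of 1 gene, 5′ to 3′ on the gene's strand. Capitals mark the CCAAT box (CCAAT, or ATTGG on the other strand) and the sterol regulatory element (TCACNCCAC), which are the textbook elements of this route. The first is Hmgcs1, which alone held both, followed by 4 of the 6 genes called in the cell line and by Elovl6, the gene with the largest call in the lymphomas, which held neither.
Hmgcs1: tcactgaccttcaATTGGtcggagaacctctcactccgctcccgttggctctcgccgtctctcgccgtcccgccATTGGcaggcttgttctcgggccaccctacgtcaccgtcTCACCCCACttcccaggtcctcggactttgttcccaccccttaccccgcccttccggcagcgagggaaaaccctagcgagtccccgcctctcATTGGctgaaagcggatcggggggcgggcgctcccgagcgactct
Cyp51: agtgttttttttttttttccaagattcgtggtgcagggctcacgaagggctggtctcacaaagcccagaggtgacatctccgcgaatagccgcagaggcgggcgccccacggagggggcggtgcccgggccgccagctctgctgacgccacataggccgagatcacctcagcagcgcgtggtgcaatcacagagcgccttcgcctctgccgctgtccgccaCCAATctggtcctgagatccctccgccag
Lss: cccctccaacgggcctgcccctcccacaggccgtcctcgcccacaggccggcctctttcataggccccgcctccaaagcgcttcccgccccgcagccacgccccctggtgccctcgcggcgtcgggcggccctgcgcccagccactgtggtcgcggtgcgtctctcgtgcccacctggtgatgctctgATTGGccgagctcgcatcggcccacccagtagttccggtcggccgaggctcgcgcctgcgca
Nsdhl: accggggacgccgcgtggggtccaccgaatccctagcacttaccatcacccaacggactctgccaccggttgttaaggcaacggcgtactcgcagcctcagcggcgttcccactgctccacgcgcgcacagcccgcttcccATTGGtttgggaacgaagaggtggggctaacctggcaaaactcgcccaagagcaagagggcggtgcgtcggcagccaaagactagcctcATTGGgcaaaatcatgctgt
Fasn: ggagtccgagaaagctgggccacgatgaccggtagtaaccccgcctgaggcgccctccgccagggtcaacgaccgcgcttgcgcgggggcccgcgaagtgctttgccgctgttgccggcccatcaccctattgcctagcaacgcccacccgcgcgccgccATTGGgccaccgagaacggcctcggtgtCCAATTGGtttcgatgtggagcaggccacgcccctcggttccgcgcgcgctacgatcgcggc
Elovl6: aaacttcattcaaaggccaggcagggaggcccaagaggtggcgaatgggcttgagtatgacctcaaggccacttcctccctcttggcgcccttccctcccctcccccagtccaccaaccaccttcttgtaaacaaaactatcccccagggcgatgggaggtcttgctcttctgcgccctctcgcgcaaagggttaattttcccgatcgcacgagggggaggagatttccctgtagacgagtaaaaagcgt
Hmgcs1 lies at chr13:119690101-119690350 on the plus strand, Cyp51 at chr5:4104698-4104947 on the minus strand, Lss at chr10:76531355-76531604 on the plus strand, Nsdhl at chrX:72918271-72918520 on the plus strand, Fasn at chr11:120824548-120824797 on the minus strand and Elovl6 at chr3:129532136-129532385 on the plus strand. The sterol element of Hmgcs1 spans bases -137 to -129. The run CCAATTGG in Fasn is a match on both strands that overlap.

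Over the whole windows, which run 250 bases before and 50 after the start, CCAAT on either strand was found in 19 of the 22 genes (86.4%), against 41.1% of 27025 genes in the RefSeq table. Those 27025 were not limited to genes tested on the arrays, as the 22 were, so the shares are of unlike sets. It was in all 14 sterol enzymes with a window, in all 3 regulators, and in 2 of 5 fatty acid enzymes; the 3 without it were Acaca, Elovl6 and Fads2. The GC box (GGGCGG, either strand) was in 18 of 22 (81.8%) against 38.2%. The sterol element as spelled was in 1 of 22 (4.55%) against 1.44%. Such matches describe letters in the window and are no evidence of binding, and a window without a match says nothing of sites elsewhere.

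Between the tumours and normal DP thymocytes, the route differed in a few genes. In T lymphoma 4 genes rose and 0 fell: Elovl6, Acaca, Hsd17b7 and Stard4, or 13.8% of the 29, where 6.55% of all genes were called, 3.37% higher and 3.18% lower. The median over the 29 was 0.36 against -0.02 over all genes, and 21 were above 0 (48.4% of all genes). At an unadjusted p under 0.05 there were 11, or 37.9%, against 22.6% of all genes. Every lymphoma array lay above every DP array for 13 genes, or 44.8%, against a background of 15.3%. Every lymphoma lay below every DP array for 3 (Pmvk, Srebf1 and Acly), or 10.3%, against 19.1%. In bulk samples like these, fewer cells of a type and less RNA per cell cannot be told apart.

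Elovl6, which lengthens palmitate to stearate, showed the largest call. It read log2 8.10, 8.35 and 8.52 in DP thymocytes and 11.61, 11.03 and 11.63 in the unsorted lymphomas, 12.06 in the sorted lymphoma and 11.87 in the cell line. The sorted tumour was the highest of the 4 lymphomas and the groups were far apart, with means of 8.32 ± 0.21 (SD, n = 3) and 11.58 ± 0.42 (SD, n = 4). The rise was 3.26 ± 0.44 SE, or 9.57-fold (adjusted p = 0.00245). Its other tested probe sets gave 1.77 and 2.75 without a call. With the sorted tumour as the only lymphoma the difference was 3.73, with an adjusted p of 0.0703.

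Acaca, which makes the malonyl-CoA that Fasn and the elongases use, read 7.51, 8.30 and 8.12 in DP thymocytes and 9.19, 9.70, 8.94 and 9.59 in the lymphomas, the last being the sorted one. It rose by 1.38 ± 0.26, or 2.60-fold (adjusted p = 0.0143). Hsd17b7 read 8.41, 8.37 and 8.39 in DP thymocytes against 9.42, 9.58, 9.88 and 9.15, and rose by 1.12 ± 0.22 (adjusted p = 0.0157). Its probe set is of a kind that can bind related transcripts, and 2 other probe sets gave only 0.32 and 0.54 without a call. Stard4 read 9.46, 9.57 and 9.69 against 10.36, 10.57, 10.74 and 10.46, and rose by 0.96 ± 0.21 (adjusted p = 0.0245). Its other tested probe sets gave 0.44 and 0.57 without a call, and the call was lost with the mean over probe sets. For all 4 genes the sorted tumour lay above every DP array. Without DP replicate 1 or DP replicate 3 only 1 of the 29 genes was called (3.12% and 3.06% of all genes), without DP replicate 2 there were 2 (2.99%), and with the sorted tumour as the only lymphoma 0 were, 2.5% of all genes being called then.

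Of the sterol enzymes below the threshold, Mvd read 7.35, 7.62 and 7.36 in DP thymocytes and 8.56, 9.36, 8.30 and 9.24 in the lymphomas. Its difference was 1.42 ± 0.38 (adjusted p = 0.0588), and another probe set gave 1.17 and passed over probe sets (adjusted p = 0.0271). Cyp51 differed by 0.84, Idi1 by 0.75, Msmo1 by 0.61, Lss by 0.56, Sqle by 0.40, Ebp by 0.39, Hmgcs1 by 0.36, Sc5d by 0.32, Nsdhl by 0.30, Mvk by 0.27, Fdps by 0.24 and Fdft1 by 0.10. The other 3 sterol enzymes were below 0: Dhcr7 by -0.99, Pmvk by -0.50 and Tm7sf2 by -0.29. Dhcr7 was split among the tumours, at 10.70 in lymphoma 1, level with the DP range of 10.60 to 10.73, and 9.23, 9.09 and 9.63 in the others. The SREBP genes and Insig1 had values below 0, with Srebf1 at -0.58 ± 0.47, Srebf2 at -0.38 ± 0.28 and Insig1 at -0.35 ± 0.45. Of the remaining fatty acid enzymes, Fads2 differed by 0.87 (adjusted p = 0.117), Fasn by 0.52, Fads1 by 0.19, Acly by -0.31 and Scd2 by -0.57.

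**Figure D3:**
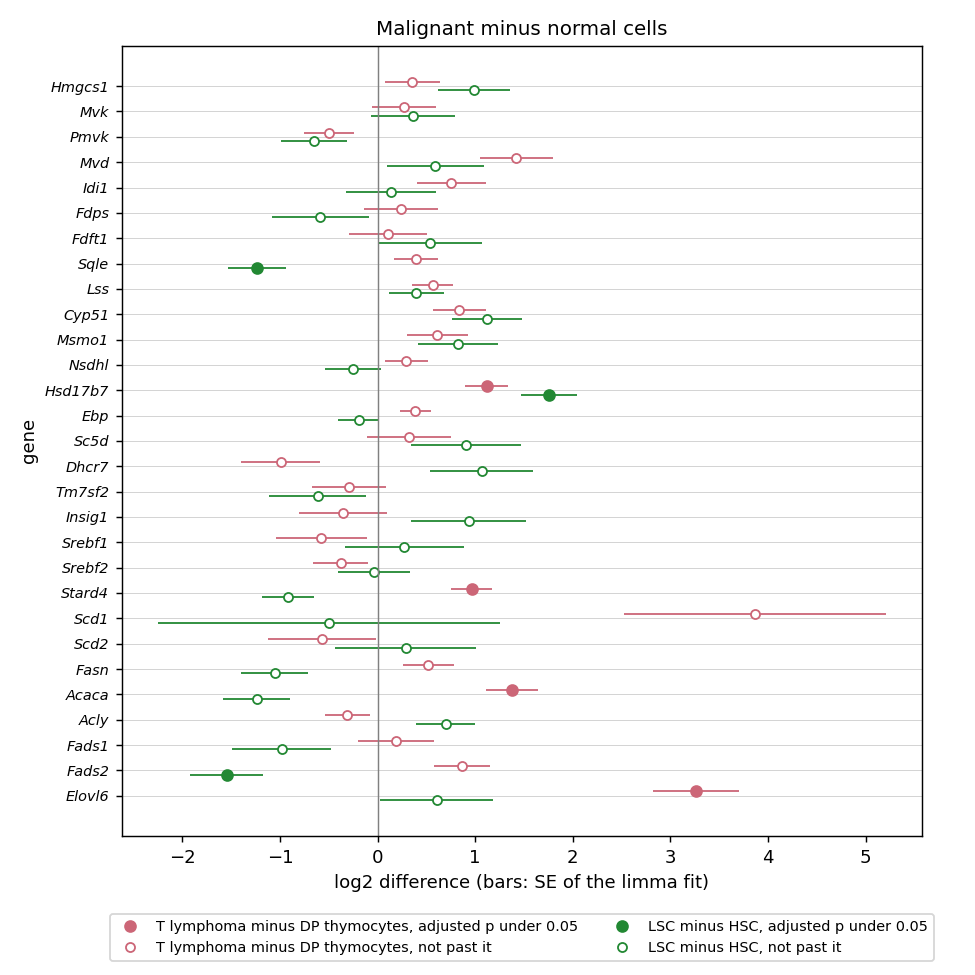
Log2 difference of each gene between T lymphoma (4 arrays) and DP thymocytes (3 arrays) and between LSC (2 arrays) and HSC (2 arrays), with bars for the SE of the limma fit; filled points passed an adjusted p of 0.05. Hsd17b7 is filled and to the right in both comparisons (1.12 and 1.76), while Acaca, Stard4 and Fads2 lie on opposite sides of 0.

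Scd1, which makes monounsaturated fatty acids from stearoyl-CoA, read low in the sorted tumour and high in the unsorted ones. It read 9.80, 11.50 and 11.41 in the unsorted lymphomas but 5.83 in the sorted one, level with DP thymocytes at 5.75, 5.75 and 5.82. The lymphoma mean was 9.64 ± 2.66 (SD, n = 4). The difference between all lymphomas and DP thymocytes, 3.87 ± 1.34, had no call (adjusted p = 0.129). The sorted minus unsorted difference was -5.08 ± 1.20 (adjusted p = 0.151). The sorted tumour and all 3 DP arrays had Scd1 values below 6.33, the level used to filter genes, and the sizes of both differences rest on those low values. Markers of several other cell types were split in the same way. Of the fat cell markers, Fabp4, the lipid carrier of adipocytes, read 10.65 to 11.06 in the unsorted lymphomas and 5.09 in the sorted one, and Adipoq, the hormone adiponectin, 8.47 to 9.59 and 5.05. The summed intensity of the 7 adipocyte markers was 6383 to 8459 in the unsorted lymphomas, 483 in the sorted one, 478 to 548 in DP thymocytes and 772 in the cell line. Of these 7 markers, 5 were above the filter level in each unsorted lymphoma and 1 in the sorted one. The summed intensity of 11 stroma and endothelium markers was 18040 to 35790 in the unsorted lymphomas, 918.5 in the sorted one and 957.7 to 1096 in DP thymocytes, and the macrophage sum given above was also lower in the sorted tumour. The part of any of these cells in the Scd1 values was not tested. Another probe set for Scd1 stayed under the filter level on the arrays and was not tested.

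No gene of the 29, Scd1 included, passed the threshold with sorting. In limma, 0 of 29 were called between the sorted tumour and the 3 unsorted ones, where 0.656% of all genes were called, and 2 had an unadjusted p under 0.05 (Scd1 and Fads2), against 9.99% of all genes. With array weights, 2 were called lower, where 7.41% of all genes were called. Fads2 read 8.29 in the sorted tumour and 8.97 to 9.34 in the others, a difference of -0.84 ± 0.35. Scd2, another desaturase of this kind, read 11.37 in the sorted tumour against 13.34, 12.57 and 12.83, a difference of -1.54 ± 0.70 (adjusted p = 0.521). The sorted tumour is 1 array and is assumed to vary like the others.

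**Figure D4:**
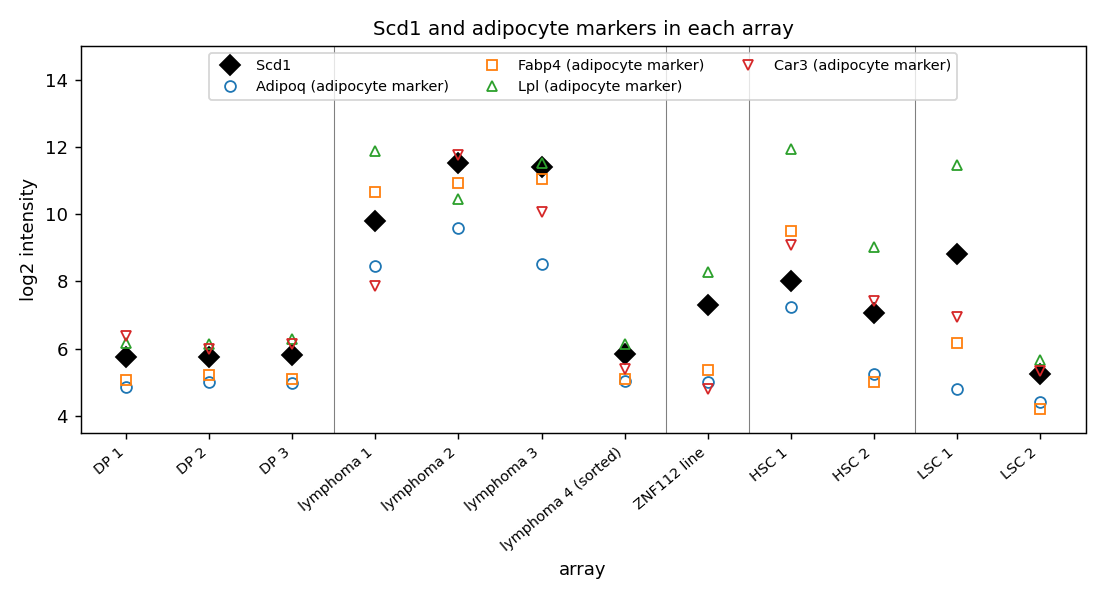
Log2 intensity of Scd1 (diamonds) and of 4 adipocyte markers (open symbols) in each of the 12 arrays; levels of different genes are not comparable in height. Scd1 is at 9.80 to 11.50 in the unsorted lymphomas and at 5.83 in the sorted lymphoma, where Fabp4 and Adipoq are also at the level of DP thymocytes.

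In LSC, set beside normal cells sorted on the same surface markers, the route showed no common direction. Of the 29 genes 3 were called, 1 higher and 2 lower, or 10.3%, against a background of 10.3% in either direction, 4.05% higher and 6.21% lower. Hsd17b7 rose, and Sqle and Fads2 fell. The median over the 29 genes was 0.27 against -0.03 over all genes, and 16, or 55.2%, were above 0 (48.2% of all genes). At an unadjusted p under 0.05 there were 9, or 31%, against 25.9%. Both LSC arrays lay above both HSC arrays for 5 genes (Hmgcs1, Cyp51, Hsd17b7, Dhcr7 and Acly), or 17.2%, against 20.5% of all genes. Both lay below for 5 (Sqle, Stard4, Fasn, Acaca and Fads2), or 17.2%, against 22.5%. The actin ratios given above, 9.82 and 13.6 in LSC against 3.91 and 5.79 in HSC, moved with this comparison. So did the T cell genes. Granulocyte marker sums were 33200 and 32470 in HSC against 11630 and 1074 in LSC. Erythroid marker sums were 2200 and 4514 against 442 and 170.9. Of these markers, 2 of 7 and 2 of 4 were called lower. The part of each in this comparison was not tested. Mitosis genes moved with it too: 7 of 13 fell, among them Ccna2 by 2.70 and Plk1 by 2.51, with a median of -2.03 over the list.

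Hsd17b7 read 9.50 and 9.23 in the LSC arrays against 7.29 and 7.93 in HSC, and rose by 1.76 ± 0.29, or 3.38-fold (adjusted p = 0.00614). Its other tested probe sets gave 0.46 and 0.93, the latter passing over probe sets (adjusted p = 0.0213). Sqle read 8.15 and 8.42 against 9.20 and 9.84, and fell by 1.23 on the log2 scale (SE 0.30, adjusted p = 0.0312). Fads2 read 6.31 and 7.11 against 8.06 and 8.45, and fell by 1.54 (SE 0.38, adjusted p = 0.0329). Of its LSC values, 1 lay under the filter level of 6.33, which is above the array medians of this side. Its other tested probe sets gave -1.19 and -0.46 without a call, and its call was lost with the mean over probe sets and without HSC replicate 1, HSC replicate 2 or LSC replicate 1. The call of Sqle was lost without HSC replicate 2 or LSC replicate 1. Acaca, at 7.63 and 7.44 against 8.52 and 9.02, differed by -1.24 ± 0.35 (adjusted p = 0.0534), and Fasn, at 8.38 in both LSC arrays against 9.32 and 9.55, by -1.05 ± 0.34 (adjusted p = 0.0842). Cyp51 differed by 1.12, Dhcr7 by 1.07 and Hmgcs1 by 0.99, none with a call. Other probe sets for Hmgcs1 gave 1.49 and 1.42, both passing over probe sets (adjusted p = 0.0251 and 0.02), and 1.54 without passing. Those for Cyp51 gave only 0.27 and 0.02. When only the HSC and LSC arrays set the spread, 0 genes were called among the 29 and 0 among all 12797. Without LSC replicate 1 or LSC replicate 2 the count was 8, or 27.6%, where 18.1% and 21.2% of all genes were called, and without HSC replicate 2 it was 1, where 6.05% were.

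The LSC arrays disagreed with each other on these genes. They lay 2-fold or more apart for 18 of 29, or 62.1%, against 35.5% of all genes, while the HSC arrays did so for 2 (6.9%, against 14.8%). The 2 LSC arrays also differed in cell type markers. The summed intensity in LSC 1 and LSC 2 was 4286 and 18840 for DP markers and 11460 and 2447 for HSC markers. It was 15400 and 3612 for macrophage markers (30900 and 5063 in HSC) and 11630 and 1074 for granulocyte markers. The part of these cells in the split was not tested. For 8 genes, or 27.6%, 1 LSC array was above and the other below both HSC arrays, where 20.2% of all genes were: Mvk, Idi1, Fdft1, Insig1, Srebf1, Srebf2, Scd1 and Scd2. Insig1 read 9.79 in LSC 1 and 7.54 in LSC 2 against 7.62 and 7.85 in HSC. Srebf1 ran the other way, at 8.63 in LSC 1 and 10.91 in LSC 2 against 9.63 and 9.36. Among the sterol enzymes, Fdft1 read 8.66 and 10.56 against 8.96 and 9.18, and Sc5d 7.69 and 9.86 against 7.59 and 8.14. Scd1 read 8.83 and 5.23 against 8.0 and 7.05, with Lpl, a lipase that macrophages and fat cells both make, at 11.45 and 5.65 against 11.92 and 9.01. Other fat cell markers did not all follow Scd1. Adipoq read 4.80 and 4.41 against 7.23 and 5.25, Car3 6.93 and 5.34 against 9.09 and 7.41, and Retn 6.7 and 6.8 against 6.4 and 6.2. The part of admixed cells in the Scd1 values of LSC was not tested. Scd2 read 12.77 and 10.56 against 11.22 and 11.53, but another of its 3 probe sets read 7.06 in LSC 1 and 9.48 in LSC 2 against 9.72 and 10.20.

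The LSC and T lymphoma contrasts differed for 4 of the 29 genes by a test of the difference itself (LSC minus HSC, less T lymphoma minus DP thymocytes), all in the lower direction. That is 13.8%, where 8.88% of all genes were called, 5.28% lower and 3.59% higher. Acaca differed by -2.62 ± 0.44 (adjusted p = 0.00835), having risen in T lymphoma, with an LSC difference below 0. Stard4 differed by -1.88 ± 0.34 (adjusted p = 0.0124), and 1 of its 2 other tested probe sets did not share the direction, at 0.23. Fads2 differed by -2.41 ± 0.47 (adjusted p = 0.0173) and Sqle by -1.63 ± 0.37 (adjusted p = 0.0297). Elovl6 differed by -2.65 ± 0.73 (adjusted p = 0.0535) and Fasn by -1.57 ± 0.43 (adjusted p = 0.0529), both close to the threshold. Dhcr7 was above 0, at 2.06 ± 0.66 (adjusted p = 0.0872). For Hsd17b7, called higher in both contrasts, the difference was 0.64 ± 0.36 (adjusted p = 0.309). With the sorted tumour as the only lymphoma 0 were called, and without DP replicate 1, DP replicate 3 or HSC replicate 2 there were 2, while without LSC replicate 1 or 2 there were 7 and 9 (17.4% and 19.1% of all genes).

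**Figure D5:**
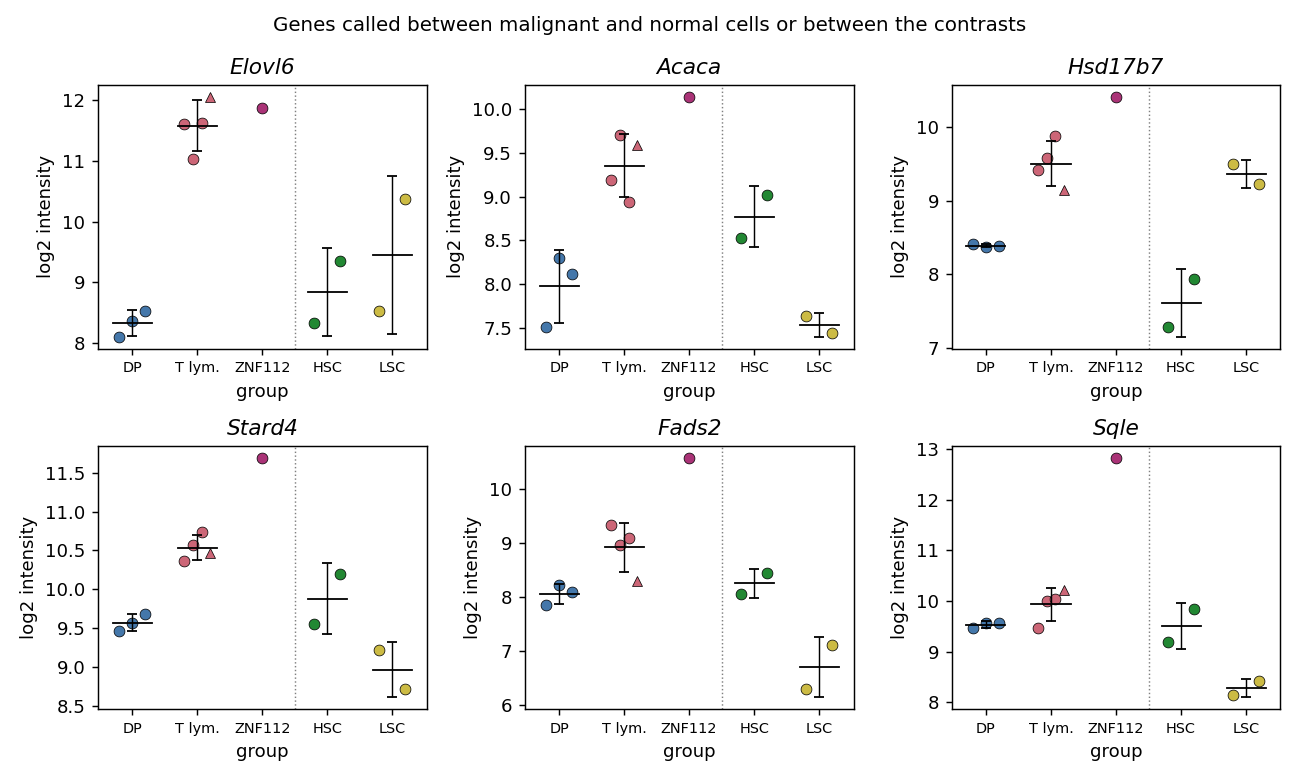
Log2 intensity of the 6 genes called between malignant and normal cells or between the contrasts, 1 point per array, with the mean and SD of each group as lines; the triangle is the sorted lymphoma, the dotted line parts the T cell and stem cell sides, and the vertical axes do not start at 0. Elovl6 separates DP thymocytes (8.10 to 8.52) from the lymphomas (11.03 to 12.06), and Sqle is at 12.83 in the cell line.

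Genes next to the route were set beside these. Of 20 other genes of the SREBP pathway tested, 2 rose and 1 fell in T lymphoma (6.55% of all genes were called): Acss2, which makes acetyl-CoA from acetate, fell by 2.24, from 10.01 to 10.03 in DP thymocytes to 6.60 to 8.61 in the tumours, while the elongases Elovl1 and Elovl5 rose by 1.03 and 0.75. In LSC 4 rose and 2 fell (10.3% of all genes were called). Acsl4, an acyl-CoA synthetase for polyunsaturated fatty acids, rose by 2.29 ± 0.42, Ggps1, which makes geranylgeranyl diphosphate, by 2.04, and Me1, the malic enzyme, by 1.77. Tmem97, an endoplasmic reticulum protein that binds sterol carriers, fell by 2.05. In the cell line 0 of the 20 were called and their median was -0.01, against 1.36 for the 29 genes; the largest difference was Mid1ip1, a partner of acetyl-CoA carboxylase, at 1.63 ± 0.65 (adjusted p = 0.358).

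Of 12 genes of cholesterol efflux, 0 were called by limma in T lymphoma or in the cell line, where 6.55% and 1.16% of all genes were. At an unadjusted p under 0.05 there were 4 and 3, against 22.6% and 12.1% of all genes. Apoe differed by 2.41 and Abca1 by -1.75 in T lymphoma. Apoe, a lipid carrier made by macrophages, read 13.12, 12.90 and 12.65 in the unsorted lymphomas and 7.29 in the sorted one, and fell with sorting by 5.59 (SE 0.61, adjusted p = 0.00948). Abca1, the pump that sends cholesterol out of the cell, read 12.08, 11.54 and 12.08 in DP thymocytes and 12.12, 11.02 and 12.03 in the unsorted lymphomas, but 5.41 in the sorted lymphoma and 5.66 in the cell line. It had no call in any comparison: its cell line difference was -4.49 ± 2.67. In LSC 1 of the 12 was called (10.3% of all genes were): Npc2 rose by 0.92. Between the contrasts 1 was called (8.88% of all genes): Abcg1, another efflux pump, differed by 2.41 ± 0.49. Of 11 fatty acid oxidation genes, 1 was called in T lymphoma, where Acadl rose by 1.16. In LSC 1 was called, Hadhb, which rose by 1.11. The shares of all genes called were 6.55% and 10.3%. In the cell line 0 of the 11 were called, and their median was -0.71.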

How the data were processed

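RNA from 12 samples was hybridised to Affymetrix mouse arrays. The intensities deposited by the authors are on the linear scale and were made with RMA (robust multi-array average), per the submitters' processing notes, which give no version. The T cell and stem cell arrays differed in median and looked normalized apart, so contrasts were made within a side. Each gene took its probe set with the highest mean log2 over the 12 arrays. It was tested if above log2 6.33, the median of all values, in at least 2 arrays. That level, 80.21 in intensity, lies below the array medians of the T cell side and above those of the stem cell side.

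The log2 values were tested two-sided with lmFit and eBayes of limma 3.58.1 (R 4.3.3), with a mean per group over all 12 arrays, adjusting over 12797 genes by Benjamini-Hochberg. Arrays have no read depth, and their number limits the precision. The labels call replicates biological, and several are pools of mice. T lymphoma was compared with DP thymocytes and LSC with HSC, and the second contrast was tested against the first. The cell line was compared with T lymphoma. To compare the sorted tumour with the 3 unsorted ones, it was fitted as a separate group. A group of 1 array took its spread from the other groups. The script was tested on simulated data.

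The 30 genes and the other lists were chosen with earlier results of these data known. All 30 are named. Of other lists, called genes are named, up to the 4 largest per list and contrast, or the 1 or 2 largest where none was called. Promoters came from RefSeq (GRCm38.p6), matched by symbol. Alternatives covered the probe set rule, filter, added constant, normalization, array weights, prior trend, replicate block, arrays in the fit, the sorted tumour, and each replicate left out.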

Additional observations from a re-analysis of the deposited data

Results flagged for a closer look

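For 4 genes the LSC contrast differed from the T lymphoma contrast in limma: Acaca by -2.62 (adjusted p = 0.00835), Fads2 by -2.41 (adjusted p = 0.0173), Stard4 by -1.88 (adjusted p = 0.0124) and Sqle by -1.63 (adjusted p = 0.0297). For all 4, each LSC array lay below each HSC array. Acaca, Fads2 and Stard4 had every lymphoma array above every DP array, while Sqle had 3 lymphoma arrays above every DP array and 1, at 9.47, no higher than the lowest DP array.

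Sc5d, a sterol desaturase, had 1 lymphoma far from the others: the sorted tumour read 9.78 against 9.35, 9.41 and 9.38, a gap of 0.87 of the group's range. Of the 29 genes looked at in this way for T lymphoma, Sc5d was the only one past Dixon's 95% limit. Chance alone passes about 1 group in 20. Its other tested probe sets did not show the gap. The sorted tumour read 9.74 against 9.39, 9.17 and 9.59 in 1 of them, and 6.40 against 6.37, 6.55 and 6.72 in the other.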

How the results depend on the processing

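Counts of genes called among the 29 depended on the arrays and weights in the fit. With only the arrays of a comparison in the fit, the count went from 4 to 7 in T lymphoma (14.3% of all genes) and from 3 and 6 to 0 in LSC and the cell line. With array weights it was 17 in T lymphoma (13 higher, 4 lower; 36.6% of all genes were called), 0 in LSC (0.805%), 0 for the difference of the contrasts (2.43%), 20 in the cell line (14.3%) and 2 for sorting (7.41%). With the sorted tumour as the only lymphoma it was 0 in T lymphoma, 0 for the difference and 2 in the cell line. Quantile normalization within each side gave 5 in LSC, and the cell line against DP thymocytes, chosen after seeing the data, gave 15. Leaving out 1 replicate gave 1 to 6 in T lymphoma (1 without DP replicate 1 or 3, 2 without DP replicate 2), 1 to 8 in LSC (1 without HSC replicate 2, 8 without either LSC replicate), 2 to 9 for the difference (2 without DP replicate 1, DP replicate 3 or HSC replicate 2, 7 and 9 without LSC replicates 1 and 2), 3 to 6 in the cell line (3 without lymphoma replicate 2) and 0 for sorting. Scd1 in the cell line turned from -2.34 to 1.46 against the sorted tumour alone and 1.52 against DP thymocytes; the cause was not tested. No other gene called or at least 2-fold in its comparison changed sign.

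Single calls differed in how often they held. Elovl6 in T lymphoma was called in 19 of 20 alternatives (adjusted p 1.28e-05 to 0.0703) and in all 7 that left out a replicate. Hsd17b7 in T lymphoma held in 14 of 20, with its value down to 0.32, and Stard4 in 12. Acaca held in 17. Of the 6 cell line calls, Sqle held in 16 of 17 alternatives, Cyp51 and Fasn in 15, Lss in 13, Msmo1 in 12 and Nsdhl in 11. Of the LSC calls, Hsd17b7 held in 13 of 15, Sqle in 10 and Fads2 in 9. For the difference, Acaca held in 22 of 24, Stard4 in 20, Fads2 in 19 and Sqle in 16. Deviations of same-numbered arrays from their group means correlated at 0.0333, -0.0674 and -0.0011 for DP thymocytes and T lymphoma. Those of unlike number ran from -0.0585 to 0.0822. For HSC and LSC the same-number value was 0.0983, and with 2 arrays per group the unlike-number value is its mirror image. With so few arrays these values cannot settle whether the samples were paired. The replicate block gave 4 calls in T lymphoma (3 of the 4 calls kept, Stard4 lost), 2 in LSC (Sqle lost) and 4 for the difference (2 kept, Sqle and Stard4 lost). Over all genes, T lymphoma calls ran from 320 to 4681 around 838, LSC from 0 to 2716 around 1313, the difference from 280 to 2444 around 1136, the cell line from 4 to 1834 around 148, and sorting from 0 to 948 around 84.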
